A study of Mus musculus with 8 samples.

Results

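The transforming growth factor beta (TGF-beta) and bone morphogenetic protein (BMP) pathway genes described here are the 64 genes, of 18933 in the authors' tables, whose names match a fixed set of name patterns for ligands, receptors, Smads, antagonists, latency proteins and Id genes. Members were picked by name alone, but with earlier results of these data known, so the list is not independent support. The study concerns microRNAs in the upkeep and differentiation of brown adipocytes, and here 3 of them were blocked in cultured mouse fat precursors. Cells of the stromal vascular fraction, the non-adipocyte cells of digested fat, were transfected with a locked nucleic acid inhibitor of miR-182, miR-203 or miR-708 at 100 nM or with a control, and RNA was taken at day 4 of differentiation. There were 4 groups of 2 samples, given in the labels as transfection with an inhibitor of miRNA-182, of miRNA-203, of miRNA-708, or control. All 4 groups received the same induction with insulin, dexamethasone, 3-isobutyl-methylxanthine and rosiglitazone. The labels give no strain, age, sex or fat depot, and do not say what the control was transfected with. Nothing in them tells if paired samples of 1 group are independent cultures, and the deposited p-values may therefore rest on technical spread alone.

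TGF-beta family ligands are secreted dimers that bring together a type I and a type II serine/threonine kinase receptor, and the type I receptor then phosphorylates Smad proteins. TGF-betas and activins act mainly through Smad2 and Smad3, BMPs through Smad1, Smad5 and Smad9, and both use the shared partner Smad4. In fat, TGF-beta and activin signalling are known to restrain the differentiation of preadipocytes, whereas several BMPs promote commitment to the adipocyte lineage, Bmp7 and Bmp8b being linked to brown fat. Extracellular antagonists such as noggin, chordin and follistatin bind ligands and keep them from receptors.

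The values are FPKM (fragments scaled to transcript length and to the library's fragment total), which allow levels of genes to be compared per length. The tables hold 1 value per group, taken here as the authors' value over its 2 samples, so there is no replicate error to print, and sequencing depth is unknown. Below, "rose", "fell" and "called" refer to q below 0.05 in the authors' deposited table of that inhibitor against the control, and every fold is the plain ratio of the 2 FPKM. The 3 comparisons share the same control values, so a low or high control value moves all 3 together. The adipocyte label was checked against markers: the 7 general adipocyte markers summed to 41468 FPKM in the control and the 6 brown adipocyte markers, among them Ucp1 and Cidea, to 1945 FPKM, and none of either list had a mean under 1 FPKM. The brown adipocyte sum stood at 1024, 1472 and 1472 FPKM with the miR-182, miR-203 and miR-708 inhibitors. Cox7a1 made up most of that sum, at 1414 FPKM in the control and 870, 1126 and 1151 FPKM with these inhibitors. It was called lower with the miR-182 inhibitor only. Of the markers of other cell types, those of macrophages summed to between 4.16 and 7.38 FPKM, of endothelial cells to between 22.9 and 31.2 FPKM, nearly all from Egfl7, and of mesothelial cells to between 5.76 and 9.14 FPKM.

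The blocked microRNAs are shown because the pathway genes were searched for matches to their seeds, bases 2 to 8, which are in capitals. Sequences are mature forms from RefSeq (GRCm38.p6). The labels give no arm, and the 5p arm of miR-182 and miR-708 and the 3p arm of miR-203 were taken here. They lie at chr6:30165962-30165986 on the minus strand, chr12:112130927-112130948 on the plus strand and chr7:96249450-96249472 on the plus strand, and no 2 of them share a seed.
mmu-miR-182-5p: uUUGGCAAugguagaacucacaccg
mmu-miR-203-3p: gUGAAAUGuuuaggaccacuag
mmu-miR-708-5p: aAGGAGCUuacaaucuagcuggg

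More of the pathway genes rose than fell with each inhibitor. With the miR-182 inhibitor, 13 of 49 tested members rose (26.5%) and 3 fell (6.12%), where 8.4% and 6.23% of all 14391 tested genes did. With the miR-203 inhibitor 13 of 49 rose (26.5%) and 1 fell (2.04%), against 4.72% and 2.51% of 14371 tested genes. With the miR-708 inhibitor 10 of 48 rose (20.8%) and 2 fell (4.17%), against 4.51% and 3.05% of 14316 tested genes. The share of falls was near that of all genes in each comparison. In either direction 16, 14 and 12 members were called, and 14.6%, 7.23% and 7.56% of all tested genes. Of the 43 members with a mean of at least 1 FPKM across the 4 groups, 11, 10 and 10 rose and 3, 1 and 2 fell with the miR-182, miR-203 and miR-708 inhibitors. Among all genes at that level 8.5%, 4.8% and 4.78% rose and 6.77%, 2.54% and 3.18% fell, in all 15.3%, 7.34% and 7.97%. The median log2 ratio on the log2(FPKM + 1) scale, over these 43 members, was 0.11 (miR-182), 0.10 (miR-203) and 0.070 (miR-708), and over all such genes -0.016, -0.011 and -0.018. The genes that rose with each inhibitor included the ligand genes Tgfb2 and Inhbb and the receptors Tgfbr2 and Tgfbr3. The antagonist Fst, the modulator Bmper and the target Tgfbi did so too. The only other members to do so were Bmp1 and Tgfb1i1, whose pathway names cover another function. Of the remaining 21 members under that mean, 15 were tested in none of the tables.

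**Figure D1:**
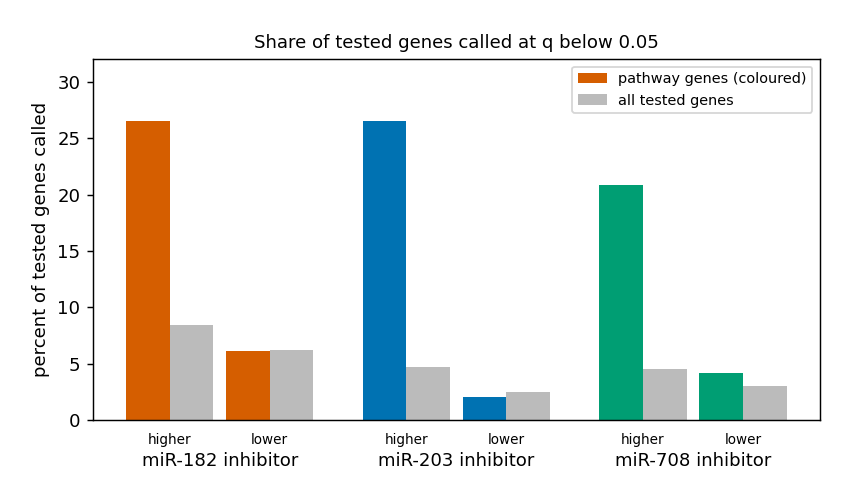
Percent of tested genes called higher or lower at q below 0.05 in the authors' tables, for each inhibitor. Coloured bars are the tested pathway genes (48 or 49) and grey bars all tested genes; the coloured bars for rises reach between 20.8% and 26.5%, the grey ones between 4.51% and 8.4%.

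Fat precursor markers rose in the same comparisons, and so did some general adipocyte markers. All 7 preadipocyte and stromal markers (Pdgfra, Pdgfrb, Cd34, Ly6a, Dlk1, Thy1 and Dcn) rose with each inhibitor in the authors' deposited tables. Their summed level was 171.8 FPKM in the control and 365.5, 280.4 and 277.6 FPKM with the miR-182, miR-203 and miR-708 inhibitors. Of the 7 general adipocyte markers, 3, 1 and 1 were called higher and none lower, and their sum was 39601, 41930 and 47735 FPKM with these inhibitors against 41468 FPKM in the control, mostly from Fabp4. At least 2 of the 6 brown adipocyte markers, Cidea and Ucp1 among them, fell with each inhibitor and none rose. The part of these shifts in the changes below was not tested, and in bulk RNA more cells of a type and more RNA per cell cannot be told apart. Smooth muscle and pericyte markers, which include the TGF-beta-responsive Acta2 and Tagln, summed to between 36.9 and 41.8 FPKM in the 4 groups. Within that list Mylk, a myosin kinase, was called higher with each inhibitor (2.44-fold, 1.72-fold and 1.87-fold) and Cspg4, the pericyte proteoglycan NG2, lower (1.68-fold, 1.33-fold and 1.604-fold).

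Among the TGF-beta ligands, Tgfb2 rose with each inhibitor and the other 2 were not called. Tgfb1, the isoform most widely expressed in tissues, was the most abundant, at 5.36 FPKM in the control and 4.95, 6.30 and 4.97 FPKM with the miR-182, miR-203 and miR-708 inhibitors. The authors' deposited tables gave q of 0.902, 0.583 and 0.932. Its inhibitor levels lay on both sides of the control. Tgfb2 (chromosome 1, 186623186 to 186705992, minus strand) went from 0.894 FPKM to 1.32, 1.32 and 1.28 FPKM, and the authors' deposited tables gave q of 0.00819, 0.00819 and 0.0208. All 3 inhibitor levels were 1.43-fold to 1.48-fold above the control, at a low absolute level. Tgfb3 went from 1.49 to 2.32, 1.83 and 1.92 FPKM and was not called. Its locus in the tables is shared with Ttll5, on the opposite strand, and Tgfb2 overlaps Gm29491 on the opposite strand, and although the library kit marks strand, the sources used here do not say whether the counting used it.

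The promoter of Tgfb2 is shown because Tgfb2 was the ligand of its class that rose and because its window holds CAGACA, the core of the CAGA box to which Smad3 and Smad4 bind. The sequence runs from 250 bases before to 50 after the RefSeq start, at chr1:186705940-186706239 of GRCm38.p6 on the minus strand, with the motif in capitals.
Tgfb2 promoter: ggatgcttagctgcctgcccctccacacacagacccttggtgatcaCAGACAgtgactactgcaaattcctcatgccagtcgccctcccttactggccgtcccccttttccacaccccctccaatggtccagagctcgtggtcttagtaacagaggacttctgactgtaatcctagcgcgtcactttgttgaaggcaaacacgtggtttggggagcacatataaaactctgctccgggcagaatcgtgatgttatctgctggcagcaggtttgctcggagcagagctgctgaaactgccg

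The activin subunits Inhba and Inhbb, which pair to form activins A and B, stood low. Inhbb (chromosome 1, 119415465 to 119422248, minus strand) rose from 0.790 FPKM to 1.73, 1.23 and 1.15 FPKM, and q was 0.00176, 0.00327 and 0.0248 in the authors' deposited tables. The miR-182 inhibitor gave its highest level, 2.19-fold above the control. Inhba went from 0.392 FPKM to 0.659, 0.820 and 0.631 FPKM. The authors' deposited table called it with the miR-203 inhibitor (2.09-fold, q = 0.0395), whereas q was 0.209 for miR-182 and 0.284 for miR-708. Whether the inhibitors differ from each other was not tested, since the tables hold comparisons with the control.

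The BMP and growth differentiation factor (GDF) ligands were mostly at or under the level the authors tested. Of 15 such genes, 4 had a mean of at least 1 FPKM, and 10 were tested in no table: Bmp2, Bmp5, Bmp6, Bmp7, Bmp8a, Bmp8b, Gdf1, Gdf3, Gdf5 and Gdf7. Bmp8b, which is secreted by brown adipocytes and raises their heat production, stood at 0.144 FPKM in the control and 0.209, 0.151 and 0.160 FPKM with the inhibitors, and Bmp7 at 0.0482, 0.0359, 0.0560 and 0.0275 FPKM. All 15 members that were tested in none of the tables lay between 0.0106 and 0.387 FPKM in every group. Bmp4 and Gdf6, which the name patterns would match, are not among the members, so no level is given for them.

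Gdf15 fell with each inhibitor, with the largest falls among the called members. Gdf15 (chromosome 8, 70629393 to 70632456, minus strand), a stress-induced cytokine that signals through the receptor GFRAL in the hindbrain rather than through the classical receptors, went from 8.00 FPKM to 2.55, 4.18 and 3.94 FPKM. These are falls of 3.14-fold, 1.91-fold and 2.03-fold, and q was 0.00176 for each in the authors' deposited tables. Bmp3, a ligand that opposes osteogenic BMPs, stood at 5.18, 3.94, 5.17 and 4.37 FPKM in the control and the miR-182, miR-203 and miR-708 groups. It was called lower for miR-182 in the authors' deposited table (1.32-fold, q = 0.0287), while q was 0.998 and 0.341 with the other inhibitors. Gdf10, the closest relative of Bmp3, moved the other way, from 3.58 FPKM to 6.56, 4.24 and 4.90 FPKM. The authors' deposited tables called it higher for miR-182 (1.83-fold, q = 0.00176) and miR-708 (1.37-fold, q = 0.0172) and gave q = 0.424 for miR-203. Gdf11 was called higher for miR-182 and miR-203 in the authors' deposited tables (q = 0.00327 and 0.0114) at 0.443 and 0.387 FPKM against 0.181 FPKM in the control. It was not tested for miR-708, at 0.311 FPKM. Gdf9, best known from the oocyte, stood at 1.83, 1.84, 0.818 and 1.09 FPKM and was not called.

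**Figure D2:**
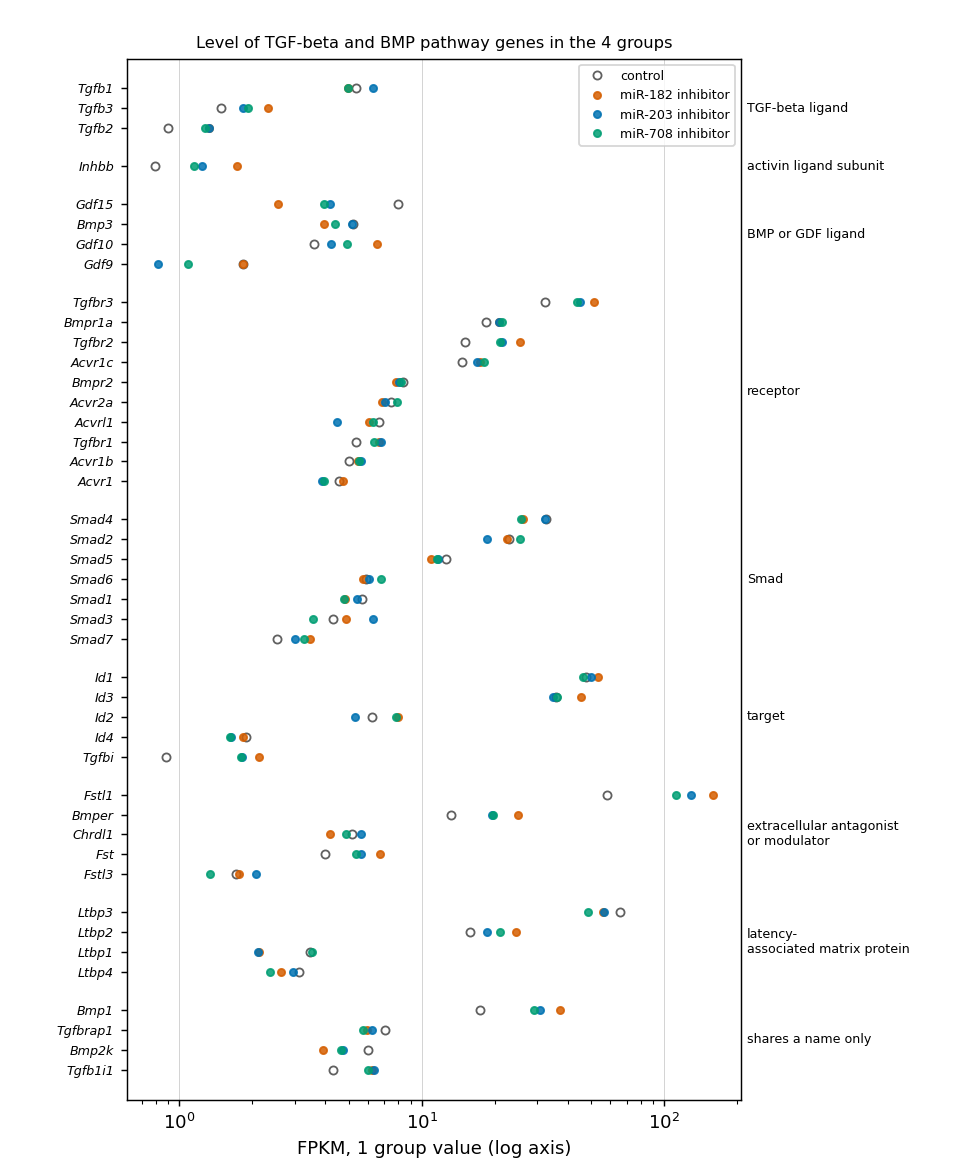
FPKM on a log axis of the 43 members with a mean of at least 1 FPKM, grouped by role and ordered by the control level; open circles are the control and filled circles the 3 inhibitor groups, 1 value per group. Tgfbr2, Tgfbr3, Bmper, Fst, Fstl1, Bmp1 and Tgfbi stand above the control with every inhibitor and Gdf15 below it, while the Smads and Id genes cluster around the control.

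Of the 12 receptors, the TGF-beta receptors Tgfbr2 and Tgfbr3 rose with each inhibitor and no other receptor was called in any comparison. Tgfbr2 (chromosome 9, 116087698 to 116175363, minus strand), the type II receptor that binds TGF-beta and recruits the type I receptor, went from 15.1 FPKM to 25.5, 21.4 and 21.1 FPKM. The folds were 1.69, 1.41 and 1.40, with q = 0.00176 for each in the authors' deposited tables. Tgfbr3, betaglycan, a co-receptor that presents TGF-beta2 in particular and also binds inhibin, was the most abundant receptor gene, at 32.2 FPKM in the control and 51.6, 44.9 and 43.6 FPKM with the inhibitors. The authors' deposited tables gave q of 0.00176, 0.0153 and 0.0264. For both genes the miR-182 inhibitor gave the highest level. Tgfbr3 shares its locus in the tables with Gm8145.

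The type I receptor of TGF-beta, Tgfbr1, stood at 5.36, 6.65, 6.80 and 6.37 FPKM, with q of 0.272, 0.208 and 0.513 in the authors' deposited tables. The BMP receptors Bmpr1a (18.4, 20.9, 20.9 and 21.4 FPKM) and Bmpr2 (8.36, 7.82, 8.09 and 8.22 FPKM) stood near the control. So did Acvr1c, the type I receptor ALK7, which is abundant in adipocytes, at 14.6, 17.4, 16.9 and 18.04 FPKM. Acvr1, a type I receptor for BMPs and activins known as ALK2, stood at 4.54, 4.74, 3.89 and 3.95 FPKM. The activin type I receptor Acvr1b stood at 5.00, 5.47, 5.61 and 5.49 FPKM. The type II receptors Acvr2a (7.45, 6.87, 7.06 and 7.87 FPKM) and Acvr2b (0.926, 0.909, 1.13 and 0.995 FPKM) also lay close to the control. Acvrl1, the type I receptor ALK1, which is best known from endothelium, was at 6.64, 6.03, 4.47 and 6.31 FPKM, lowest with the miR-203 inhibitor but not called (q = 0.519 in the authors' deposited table). Bmpr1b, at most 0.0644 FPKM, was tested in no table. A p that misses the threshold does not show that these levels are equal.

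None of the 7 tested Smad genes was called with any inhibitor. At an unadjusted p under 0.05 in the authors' deposited tables, only Smad3 with the miR-203 inhibitor passed (p = 0.04375, q = 0.309), at 6.30 FPKM against 4.31 FPKM in the control, with 4.85 FPKM for miR-182 and 3.54 FPKM for miR-708. Smad3 thus lay above the control in 2 inhibitor groups and below it in 1. Smad4, the shared partner, stood at 32.5, 26.1, 32.2 and 25.7 FPKM in the control and the miR-182, miR-203 and miR-708 groups, and Smad2 at 23.0, 22.6, 18.5 and 25.4 FPKM. Smad2 lay on both sides of the control, and Smad4 was below it with each inhibitor without passing the test (q = 0.852, 0.997 and 0.859 in the authors' deposited tables). The BMP-side Smads were lower in level, Smad5 at 12.6, 10.96, 11.7 and 11.6 FPKM and Smad1 at 5.65, 4.82, 5.38 and 4.78 FPKM. The inhibitory Smads, which block receptors and are induced by the pathway itself, were Smad6 at 5.89, 5.72, 6.05 and 6.76 FPKM and Smad7 at 2.53, 3.44, 3.01 and 3.28 FPKM. Smad7 stood 1.19-fold to 1.36-fold above the control and its q was 0.541, 0.839 and 0.651 in the authors' deposited tables. Smad9, at most 0.306 FPKM, was not tested.

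The Id genes, which encode inhibitors of basic helix-loop-helix factors and are direct targets of BMP signalling, did not pass the threshold in any comparison. Id1 (chromosome 2, 152736251 to 152737410, plus strand) was the most abundant, at 47.7 FPKM in the control and 53.3, 49.7 and 46.3 FPKM with the inhibitors, and its q was 0.689, 0.964 and 0.987 in the authors' deposited tables. Id3 stood at 35.7, 45.3, 35.0 and 36.1 FPKM, with q of 0.258, 0.994 and 0.996 in the authors' deposited tables. Id2 stood at 6.21, 7.96, 5.30 and 7.81 FPKM, above the control in 2 inhibitor groups and below it with the miR-203 inhibitor. At an unadjusted p under 0.05 in the authors' deposited tables, Id2 and Id3 passed for miR-182 and Id2 for miR-708. Id4 was at 1.88, 1.83, 1.64 and 1.61 FPKM. The ratios of the 4 Id genes to the control lay between 0.854 and 1.28 over the 3 inhibitors.

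Tgfbi, a secreted matrix protein named for its induction by TGF-beta, rose with each inhibitor. Tgfbi (chromosome 13, 56609603 to 56639339, plus strand) went from 0.879 FPKM to 2.12, 1.82 and 1.80 FPKM, 2.41-fold, 2.07-fold and 2.05-fold higher, with q = 0.00176 for each in the authors' deposited tables. Its promoter, at chr13:56609336-56609635 of GRCm38.p6 on the plus strand, is shown beside that of Tgfb2 because Tgfbi had the largest fold among the genes listed here as targets. It holds GGCGCC, a GC-rich sequence that Smad1 and Smad5 bind in BMP-responsive promoters, in capitals, and no CAGACA.
Tgfbi promoter: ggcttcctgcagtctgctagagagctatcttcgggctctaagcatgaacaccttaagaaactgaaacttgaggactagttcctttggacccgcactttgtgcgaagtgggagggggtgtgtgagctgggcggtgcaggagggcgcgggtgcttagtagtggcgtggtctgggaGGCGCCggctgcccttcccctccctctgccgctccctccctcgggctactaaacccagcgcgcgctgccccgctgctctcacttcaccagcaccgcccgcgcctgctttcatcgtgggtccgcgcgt

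The promoters of 30 of the 43 members with a mean of at least 1 FPKM were in the RefSeq table. On either strand, CAGACA was in 3 of the 30 (10%; Fstl3, Ltbp3 and Tgfb2) and in 15.1% of the 8531 promoters of genes at that level. GGCGCC was in 10 of the 30 (33.3%) and in 22.5% of those promoters, and the palindromic Smad binding element GTCTAGAC in 1 (Smad6) and in 0.211%. Among all 27025 promoters the shares were 21.03%, 11.96% and 0.211%. No motif contains another, and a match is a description of the letters only.

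The extracellular antagonists and modulators held the largest called rise with the miR-182 and miR-203 inhibitors, that of Fstl1. Fstl1 (chromosome 16, 37776873 to 37836514, plus strand), a secreted glycoprotein of the follistatin-like family that is abundant in mesenchymal cells and preadipocytes, went from 57.9 FPKM to 159.3, 129.6 and 111.5 FPKM. It was called for miR-182 (2.75-fold, q = 0.00176) and miR-203 (2.24-fold, q = 0.00928) and not for miR-708 (1.93-fold, q = 0.0588) in the authors' deposited tables. Fst (chromosome 13, 114452262 to 114458730, minus strand), follistatin, which binds and neutralises activins, rose from 4.001 FPKM to 6.74, 5.62 and 5.35 FPKM, with q of 0.00176, 0.00819 and 0.0333 in the authors' deposited tables. Bmper (chromosome 9, 23223076 to 23485202, plus strand), a BMP-binding protein that modulates BMP activity in endothelium and other tissues, rose from 13.2 FPKM to 25.1, 19.6 and 19.6 FPKM, with q = 0.00176 for each in the authors' deposited tables.

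Several other antagonists or modulators were not called in any comparison. Nog, noggin, stood at 1.02, 0.632, 0.978 and 0.540 FPKM and was not called, its lowest q in the authors' deposited tables being 0.0565, with the miR-708 inhibitor. Chrdl1, a chordin-like BMP antagonist, was at 5.13, 4.17, 5.59 and 4.87 FPKM and Chrd, chordin, at 0.919, 1.13, 1.00 and 0.810 FPKM. Fstl3, which like follistatin binds activins, was at 1.70, 1.76, 2.06 and 1.33 FPKM, and neither it nor the chordins were called. Grem1, Chrdl2 and Fstl4, at most 0.127 FPKM, were tested in no table.

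Of the latent TGF-beta binding proteins, some of which tie TGF-beta precursors to the matrix, Ltbp3 had the highest control level of all 64 members. It stood at 65.8 FPKM in the control and 56.0, 56.3 and 48.6 FPKM with the inhibitors, and the authors' deposited table called it lower with the miR-708 inhibitor (1.35-fold, q = 0.0256). Its locus in the tables is shared with another gene on the opposite strand. Ltbp2, at 15.9, 24.4, 18.6 and 20.98 FPKM, was above the control in every inhibitor group but not called (q = 0.102, 0.769 and 0.389 in the authors' deposited tables). Ltbp1 was at 3.45, 2.13, 2.11 and 3.54 FPKM and Ltbp4 at 3.11, 2.62, 2.95 and 2.37 FPKM, and neither was called.

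For 4 members a pathway name covers another function. Bmp1 (chromosome 14, 70474557 to 70520260, minus strand) is a protease of the tolloid family that trims procollagen and cleaves chordin, and it rose from 17.4 FPKM to 37.1, 30.9 and 28.9 FPKM. The folds were 2.14, 1.78 and 1.67, with q = 0.00176 for each in the authors' deposited tables. Tgfb1i1, the focal adhesion protein Hic-5, rose from 4.30 FPKM to 6.25, 6.37 and 5.99 FPKM, with q of 0.00463, 0.00463 and 0.0172 in the authors' deposited tables. Bmp2k, a kinase of endocytosis, fell for miR-182 in the authors' deposited table (6.03 to 3.93 FPKM, 1.53-fold, q = 0.0114) and was not called at 4.71 and 4.64 FPKM for miR-203 and miR-708. Bmp2k shares its locus with Paqr3. Tgfbrap1, a vesicle-tethering protein, was at 7.05, 5.92, 6.23 and 5.70 FPKM and was not called. Without these 4 genes, 11, 11 and 8 members rose with the miR-182, miR-203 and miR-708 inhibitors and 2, 1 and 2 fell. Over all tested genes, 8.4%, 4.72% and 4.51% rose and 6.23%, 2.51% and 3.05% fell.

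**Figure D3:**
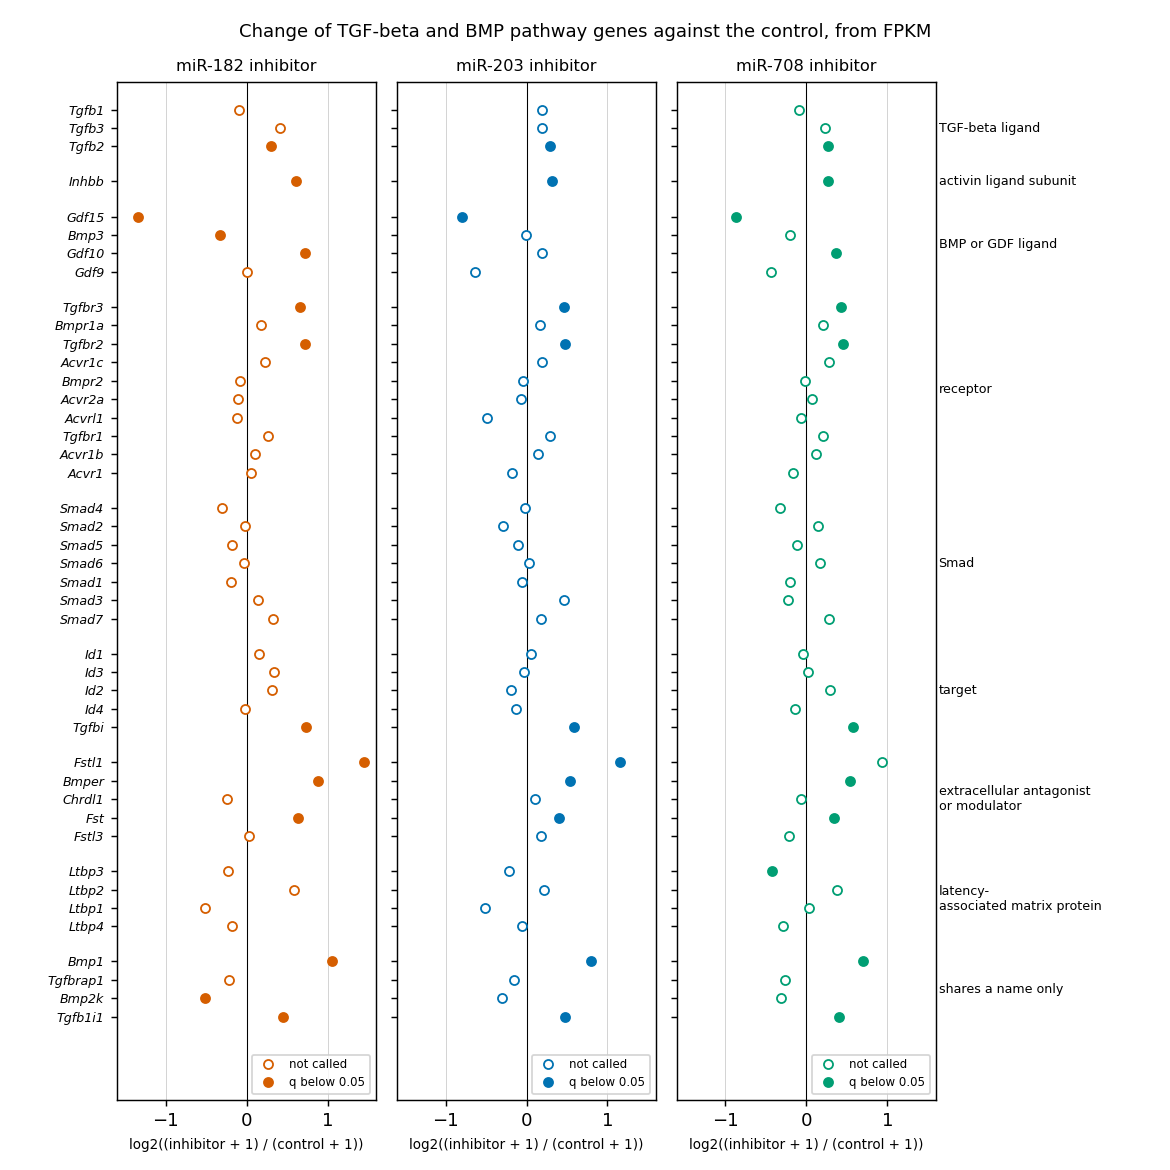
Log2((inhibitor FPKM + 1) / (control FPKM + 1)) of the same 43 members in the 3 comparisons, with filled circles for genes called at q below 0.05 in the authors' tables and open circles for the others. Calls lie mostly right of 0, among ligands, TGF-beta receptors, antagonists or modulators, Tgfbi, Bmp1 and Tgfb1i1. Gdf15 lies the farthest to the left, no Smad or Id gene is filled, and the 3 panels share the control.

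Genes of the pathway outside the name patterns were taken from 4 further lists, and Eng, Bambi, Smurf1, Tgif1, Ctgf, Dand5, Hey1 and Atoh8 are named from them after their values were seen. Over all tested genes, 8.4%, 4.72% and 4.51% were called higher and 6.23%, 2.51% and 3.05% lower with the miR-182, miR-203 and miR-708 inhibitors. These shares are the background at q below 0.05 for each list below. No share over all genes was taken at an unadjusted p, so counts at that level have no background. Of 18 tested extracellular modulators, 9, 6 and 4 rose with the miR-182, miR-203 and miR-708 inhibitors and none fell, with median log2 ratios of 0.43, 0.30 and 0.25 over the 17 with a mean of at least 1 FPKM. At an unadjusted p under 0.05 in the authors' deposited tables, 12, 10 and 8 were higher. At that level 1 was lower, Dand5 with the miR-182 inhibitor. Fbn1, fibrillin-1, the microfibril protein that anchors latent TGF-beta complexes, went from 15.1 FPKM to 31.1, 25.0 and 23.9 FPKM, with q = 0.00176 for each in the authors' deposited tables. Dcn, decorin, a proteoglycan that binds TGF-beta and is also one of the stromal markers above, went from 57.2 to 95.7, 81.4 and 85.7 FPKM, and the BMP antagonist Nbl1 from 4.38 to 8.02, 7.63 and 6.39 FPKM. Eng, the TGF-beta co-receptor endoglin, stood at 1.13, 3.17, 4.02 and 2.31 FPKM and was called for miR-182 (q = 0.0409) and miR-203 (q = 0.0125) in the authors' deposited tables. Bambi, a decoy receptor without a kinase that is on 2 of the lists, stood at 0.914, 1.58, 1.18 and 1.33 FPKM and was called for miR-182 (q = 0.00176) and miR-708 (q = 0.0145) in the authors' deposited tables.

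Intracellular modulators were called in both directions with the miR-182 inhibitor alone. Of 20 tested, 3 rose and 5 fell with the miR-182 inhibitor, none was called with the miR-203 inhibitor and 2 fell with the miR-708 inhibitor. Over all tested genes, 8.4%, 4.72% and 4.51% were called higher and 6.23%, 2.51% and 3.05% lower. Counts of 0 to 3 of 20 are too few to set apart from these shares. The 5 of 20 that fell with the miR-182 inhibitor are a larger share than the 6.23% of all genes. With the miR-203 inhibitor, at an unadjusted p under 0.05 in the authors' deposited table, 1 was higher and 3 were lower. The share of all genes at that level was not taken. Smurf1, a ubiquitin ligase that marks Smad1 and Smad5 and receptors for breakdown, stood at 27.1 FPKM in the control and 18.3, 21.4 and 20.0 FPKM with the inhibitors. It was called lower for miR-182 (q = 0.00176) and miR-708 (q = 0.0240), and q was 0.0914 for miR-203 in the authors' deposited tables. Tgif1, a homeobox corepressor of Smad2 and Smad3, stood at 11.4, 7.24, 9.92 and 7.94 FPKM and was called lower for miR-182 (q = 0.00327) and miR-708 (q = 0.00928) in the authors' deposited tables.

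Of 19 tested TGF-beta-responsive genes, 9, 7 and 5 rose with the miR-182, miR-203 and miR-708 inhibitors and none fell, at q below 0.05 or at an unadjusted p under 0.05 in the authors' deposited tables. The shares called higher over all tested genes were 8.4%, 4.72% and 4.51%. The risers included the matrix genes Col1a2 (252.9 FPKM in the control and 444, 395 and 368 FPKM), Postn, periostin (169 FPKM and 297, 239 and 281 FPKM), Loxl2, a collagen cross-linking oxidase (14.9 FPKM and 24.03, 21.8 and 21.4 FPKM), and Tnc, tenascin C (1.74 FPKM and 4.65, 3.02 and 3.11 FPKM). Ctgf, a well-known transcriptional target of TGF-beta, stood at 4.84, 5.56, 5.92 and 5.63 FPKM and was not called (q = 0.892, 0.772 and 0.927 in the authors' deposited tables). Of 8 tested BMP-responsive genes, 2, 1 and 1 rose and none fell, where 8.4%, 4.72% and 4.51% of all tested genes rose, and 1 of 8 is too few to set apart from that share. Atoh8 was called for miR-182 and miR-203, and Bambi for miR-182 and miR-708, in the authors' deposited tables. At an unadjusted p under 0.05 in the authors' deposited tables, Hey1 was lower in each comparison (q = 0.180, 0.0542 and 0.158). At that level 2, 3 and 2 of these genes were higher, Atoh8 and Bambi in each comparison, and no share over all genes was taken.

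Set against each other without the control, the 3 inhibitor groups were ordered unevenly. The miR-182 inhibitor group had the highest level of the 3 for 18 of the 43 members with a mean of at least 1 FPKM (41.9%), the miR-203 group for 17 (39.5%) and the miR-708 group for 8 (18.6%). Over all 12547 genes at that level the shares were 35.0%, 34.4% and 30.5%. The tables hold no test between inhibitors, so these orders carry no error.

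Matches to the seeds were sought in the longest 3′ untranslated region (UTR) of each gene in GENCODE M21 (GRCm38). All 43 members with a mean of at least 1 FPKM had one, with a median length of 1859 bases against 1156 bases over all such genes. A match to the miR-182 seed was found in 11 of the 43 (25.6%, all genes 12.1%), to the miR-203 seed in 10 (23.3%, all genes 16.8%) and to the miR-708 seed in 7 (16.3%, all genes 15.4%). Longer regions hold more matches, and the members' regions were longer. With the miR-182 inhibitor 3 of the 11 members with a match rose, Bmper, Tgfbi and Tgfbr3, and 8 of the 32 without one, while 1 and 2 fell. With the miR-203 inhibitor 3 of the 10 with a match rose, Bmper, Tgfb2 and Tgfbr2, and 7 of the 33 without one, while 0 and 1 fell. With the miR-708 inhibitor none of the 7 with a match was called in either direction, and 10 of the 36 without one rose and 2 fell. Over all genes with a mean of at least 1 FPKM, the shares called higher with and without a match were 8.40% and 9.49% for miR-182, 4.68% and 5.35% for miR-203, and 3.796% and 5.51% for miR-708.

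The sites below are those in called members where the match is followed by an A, the form that is most effective in known targets. They are transcript sequence from GENCODE M21 with the match in capitals, on GRCm38, at chr9:23484633-23484655 on the plus strand, chr13:56638798-56638820 on the plus strand, chr5:107109063-107109085 on the minus strand, chr5:97088887-97088909 on the plus strand, and, for the 2 Inhba sites, chr13:16028856-16028878 and chr13:16031331-16031353 on the plus strand. Bmp2k fell with the miR-182 inhibitor and the others rose with the inhibitor of the microRNA named. Both Inhba sites lie past the deposited locus of that gene, which ends at 16027211. Whether the transcripts counted hold these sites is not known. A match does not show that the microRNA acts on the gene in these cells.
Bmper, miR-182: ttttcactagcataTTGCCAAat
Tgfbi, miR-182: cagtttctctcagtTTGCCAAag
Tgfbr3, miR-182: tgggggcctgtcacTTGCCAAag
Bmp2k, miR-182: ctttgaatgggtatTTGCCAAaa
Inhba, miR-203: gtagtacgtgggtaCATTTCAaa
Inhba, miR-203: aatttatatgagtgCATTTCAac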

How the data were processed

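RNA of 8 samples, 2 in each of 4 groups, was sequenced from directional libraries, per the labels' protocols. The submitters' processing notes name TopHat2 2.0.9, Cuffdiff 2.1.1 and the mm10 build; which annotation was used is not given in the sources used here. Deposited by the authors were 3 tables of 18933 genes, 1 per inhibitor, each with a FPKM for the control and for the inhibitor group, a log2 fold change, and a p-value and q-value for each gene. The smallest deposited p-value is 5e-05 and the smallest q-value 0.00176. The deposited log2 fold changes were checked against the FPKM ratio and lay within 0.01 of it for at least 18929 genes in each table. Genes with p and q of 1 were taken as not tested (4542, 4562 and 4617 genes).

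The tables hold no values per sample, so the depth is unknown, no test of replicates could be added, and a gene was called at the authors' q-value below 0.05. Fold is the plain FPKM ratio. Log2 ratios used a pseudocount of 1, which understates the change of low genes, over genes with a mean FPKM of at least 1 across the 4 groups. The counting was tested on simulated data. Loci were read from the deposited tables and written counting from 1. Python 3.11.15, pandas 2.3.3, numpy 2.4.6 and matplotlib 3.10.9 were used.

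Named are members with a mean of at least 1 FPKM that were called in any comparison or are a main component of the pathway, and, from the 4 further pathway lists, at most 4 genes a list called in the same direction in each comparison. The members and lists were chosen with earlier results of these data known, so no list is independent support. Alternatives were another q threshold, another adjustment, a fold minimum, other filters and pseudocounts, and leaving out genes that share a locus. Values of a few genes of these lists are not reported here, and the counts include them.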

Additional observations from a re-analysis of the deposited data

How the results depend on the processing

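No paired analysis was possible because the tables hold 1 value per group, and for the same reason no sample could be left out and no replicate error set beside a median. With q below 0.01 in the authors' deposited tables, 1 member was lower with the miR-182 inhibitor, and 4 were higher and 1 lower with the miR-708 inhibitor. With a minimum of 1.5-fold, 7 members were higher with the miR-203 inhibitor, and 2 higher and 1 lower with the miR-708 inhibitor. No share over all genes was taken at q below 0.01 or with the 1.5-fold minimum. Counts at those settings, of members and of the further lists, therefore have no background. Without members sharing a locus, 1 was lower with the miR-708 inhibitor and its median log2 ratio was 0.13. With a mean of at least 5 FPKM the medians were 0.17 for miR-182 and 0.16 for miR-708. For the further lists, alternatives were chosen after seeing the data. With q below 0.01, extracellular modulators were higher in 3 genes for miR-203 and 2 for miR-708, intracellular modulators lower in 2 for miR-182 and 1 for miR-708, TGF-beta-responsive genes higher in 4 for miR-203, and BMP-responsive genes higher in 0 for miR-708. Adjusting within the miR-203 table alone made 1 BMP-responsive gene lower. A stricter threshold can only remove calls, and the cause of the other shifts was not tested. Of 42 calls of named members, 42 remained after adjustment within each table, 29 with q below 0.01 and 24 with the 1.5-fold minimum. The 1.5-fold minimum removed every call of Tgfb2 and Tgfb1i1. Tgfbr2, Tgfbr3, Fst and Bmper each kept only their miR-182 call. Also lost were the miR-708 calls of Inhbb, Gdf10 and Ltbp3 and the miR-182 call of Bmp3. Among the genes called higher with each inhibitor, only Tgfbi and Bmp1 kept every call. Leaving out the 4 genes whose pathway name covers another function, also chosen after seeing the data, kept each count within 1.5 times. Other counts and medians kept their direction, under a pseudocount of 0.1, no filter and centring on all genes among others. Sequencing depth is unknown, so the precision of the members under 1 FPKM cannot be given.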

Other observations

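Some members lie close together in the genome and did not share a call. On chromosome 13, Tgfbi and Smad5 are 63.7 kb apart; Tgfbi was called higher with each inhibitor in the authors' deposited tables and Smad5 with none. On chromosome 15, Acvrl1 and Acvr1b are 28.8 kb apart, and on chromosome 2, Acvr1c and Acvr1 are 30.7 kb apart, and none of these 4 receptors was called.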
